A study of Mus musculus with 46 samples.

Results

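The 10 genes described here act in the synthesis and use of NAD in mouse heart and striatum. They were taken by gene symbol from the count tables: Nmrk1, Nmrk2, Nampt, Naprt, Nadsyn1, Nmnat1, Nmnat2, Nmnat3, Nnmt and Nadk, 10 of the 57010 genes counted. The set was selected on measured values of Nmrk2, which an earlier look at these data had named for its higher level in hearts of wild-type mice given propylthiouracil and then thyroid hormone than in untreated ones; the other 9 were chosen by their place in the same pathway. Values of Nmrk2 in comparisons that use those libraries are therefore given as a description, with no test. Their SEs and intervals show the spread between libraries and are not to be read as a test.

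Total RNA from heart and striatum of adult mice was sequenced in 46 libraries (22 hearts, 24 striata). The mice were wild type (WT) or HrDR5/DR5, here called mutant, with both copies of Hr carrying the DR5 allele. The series title gives this allele as the loss of 1 nucleotide that affects how the hairless gene responds to thyroid hormone (TH). Each genotype had 3 treatments. Untreated mice were euthyroid. PTU mice ate low iodine food containing propylthiouracil, which blocks the making of TH, for 15 days. PTU+TH mice had PTU and then TH for 24 hours. Together with the 2 tissues this made 12 groups of 4 libraries each, except mutant untreated and mutant PTU hearts, with 3 each. The label of heart mutant PTU+TH replicate 1 gives the 15 days without the 24 hours of TH, so values of Nmrk2, Nampt, Naprt, Nmnat1 and the listed genes that rest on it are also given without it. The sources used here do not give strain, sex or exact age, and the labels do not say whether each library is a separate animal, so p-values measure the spread between these samples.

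NAD carries electrons in energy metabolism and is consumed by sirtuins, PARPs and other enzymes, so cells have to remake it. Nampt converts nicotinamide, the product of that consumption, to nicotinamide mononucleotide and is the rate-limiting enzyme of this salvage route. Nmrk1 and Nmrk2 make the same intermediate from nicotinamide riboside, and Nmnat enzymes turn it into NAD. Nmrk2 is the form of striated muscle, and in failing mouse and human hearts its RNA is known to rise while that of Nampt falls.

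The promoter windows of Nmrk2 and Nampt are shown because their RNA levels lay on opposite sides of the untreated level in WT hearts after TH. They are the 250 bases before the transcription start from RefSeq on build GRCm38.p6, which is not the build of the counts. Capitals mark matches to 2 motifs searched on both strands, the TH receptor recognition hexamer AGGTCA and the TATA box TATAAA, and each sequence is written 5′ to 3′ on the gene's strand. The Nmrk2 window is chr10:81202038-81202287 on the minus strand and the Nampt window is chr12:32820085-32820334 on the plus strand.
Nmrk2: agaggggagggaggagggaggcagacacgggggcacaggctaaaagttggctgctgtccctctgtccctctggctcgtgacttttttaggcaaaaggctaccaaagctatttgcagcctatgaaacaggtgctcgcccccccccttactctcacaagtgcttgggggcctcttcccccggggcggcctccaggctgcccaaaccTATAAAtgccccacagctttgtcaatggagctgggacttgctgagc
Nampt: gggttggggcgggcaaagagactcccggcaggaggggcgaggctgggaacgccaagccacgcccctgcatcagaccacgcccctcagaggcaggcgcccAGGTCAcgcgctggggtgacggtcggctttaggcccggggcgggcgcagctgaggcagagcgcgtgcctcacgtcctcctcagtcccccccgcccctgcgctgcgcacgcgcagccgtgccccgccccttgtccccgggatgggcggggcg
The Nmrk2 window held TATAAA beginning 46 bases before the start and no AGGTCA. The Nampt window held AGGTCA beginning 151 bases before the start and no TATAAA. Of 32851 windows of this length, 14% held AGGTCA and 12.4% held TATAAA. RefSeq promoters were at hand for 8 of the 10 genes, 10 windows in all, and those of the other members held neither motif. A match is a run of letters and not a measured binding site.

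Heart libraries held 3.27 to 19.53 M counts in genes and striatum libraries 9.469 to 13.66 M. Heart mutant untreated replicate 2 stood apart, with the lowest total and 31.5% of its gene and unassigned reads in no annotated feature, against 3.45% to 8.23% in the other hearts. Summed cardiomyocyte markers were at 50850 to 71670 CPM (counts after scaling every library to the same total) in hearts and 212.5 to 441.1 CPM in striatum, and striatal projection neuron markers at 6511 to 10930 CPM in striatum and 13.2 to 24.8 CPM in hearts, so each tissue held the markers of its label. Hr, the mutated corepressor gene, was at 15.4 to 16.3 CPM in untreated WT hearts, 1.37 to 3.68 CPM with PTU and 69.4 to 80.6 CPM with PTU+TH. In mutant hearts it was at 5.33, 3.13 and 18.8 CPM untreated, 3.37, 2.78 and 1.37 CPM with PTU, and 12.4 to 20.1 CPM with PTU+TH.

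Nmrk2 (ENSMUSG00000004939, chromosome 10) was low in untreated and PTU hearts of WT mice and high after TH. In untreated WT hearts it stood at 3.01, 2.67, 3.33 and 1.67 CPM. With PTU it stood at 2.71, 2.29, 1.76 and 2.22 CPM. These groups overlapped, and the log2 change with PTU was -0.25 ± 0.452 (SE). With PTU+TH it stood at 8.57, 11.1, 35.6 and 12.3 CPM in replicates 1 to 4. Every PTU+TH library was above every untreated and PTU library, and replicate 3 was far above the other 3. The mean of 16.9 ± 12.6 CPM (SD, n = 4) was 7.52 times the PTU mean and 6.32 times the untreated mean. The corresponding log2 changes were 2.91 ± 0.417 and 2.66 ± 0.421. Without replicate 3 they were 2.24 and 1.99.

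In mutant hearts Nmrk2 was already higher with PTU alone than untreated. In untreated mutant hearts it stood at 1.60, 1.17 and 1.77 CPM, the second of these from the shallow library, where it rested on 3 counts. With PTU it stood at 8.24, 6.95 and 4.02 CPM, and with PTU+TH at 11.1, 6.34, 6.61 and 22.7 CPM. Both treated groups lay above the untreated group with no overlap, while they overlapped with each other. Nmrk2 rose in mutant hearts with PTU by 2.00 ± 0.601 on the log2 scale (edgeR quasi-likelihood test, adjusted p = 0.0302). It was higher with PTU+TH than untreated by 2.86 ± 0.568 (adjusted p = 0.00186), a call kept without each of the 7 libraries in turn (2.89, adjusted p = 0.00483, without PTU+TH replicate 1, and 2.78, adjusted p = 0.0138, without the shallow library). The change from PTU to PTU+TH did not pass the test (0.86 ± 0.439, adjusted p = 0.765, and 0.89, adjusted p = 0.984, without PTU+TH replicate 1). The call for PTU was less firm. It was lost with the share of reads in no gene as a covariate (1.97, adjusted p = 0.0668) and when any 1 of 5 of the 6 libraries was left out, mutant PTU replicate 3 being the exception, where adjusted p ran from 0.0521 to 0.114 and was 0.114 without the shallow library.

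Among PTU hearts, Nmrk2 was 2.85 times as high in mutant as in WT, and no mutant library reached down to a WT one. The difference of 1.51 ± 0.465 on the log2 scale did not pass the edgeR test (adjusted p = 0.0916), while DESeq2 gave an adjusted p of 0.0307. The genotype difference in the PTU response was 2.25 ± 0.753, given without a test. After TH the genotypes overlapped, with a mutant against WT log2 change of -0.54 ± 0.387 that became 0.13 without WT PTU+TH replicate 3 and was -0.52 without mutant PTU+TH replicate 1. Likewise the genotype difference in the TH response was -2.05 ± 0.605, moved to -1.37 without the former library and was -2.02 without the latter.

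Ordered by mean, Nmrk2 was highest in WT PTU+TH hearts (16.9 CPM), then mutant PTU+TH (11.7 CPM) and mutant PTU (6.41 CPM), each overlapping the next. A gap without overlap separated them from WT untreated (2.67 CPM), WT PTU (2.25 CPM) and mutant untreated hearts (1.51 CPM), which again overlapped in turn. Another gap separated all hearts from striatum, where every library had 0 to 3 Nmrk2 counts. In bulk tissue a change in the number of cells that hold an RNA and a change of RNA per cell cannot be told apart. Summed skeletal muscle markers ran from 15.4 to 27.0 CPM in untreated WT hearts, 15.9 to 27.8 with PTU and 13.3 to 25.5 with PTU+TH. Of the 10 skeletal muscle markers 5 were tested in heart. From PTU to PTU+TH in WT hearts 1 of the 5 rose (Tnni2, a fast troponin gene, 1.37, adjusted p = 0.038), where 11.4% of all genes changed. An unadjusted p under 0.05 was reached by 4 of the 5, beside 23.5% of all genes. The median log2 change of the 5 was 0.59 against -0.03 for all genes. In mutant hearts the same sum was 20.1 to 36.4 CPM untreated, 15.0 to 16.8 with PTU and 10.5 to 15.9 with PTU+TH. Against untreated mutant hearts 1 of the 5 fell with PTU (Mylpf, a myosin light chain gene, -1.21, adjusted p = 0.0498) and 2 fell with PTU+TH (Mylpf, -1.94, and Mybpc2, -1.02), both also called without PTU+TH replicate 1. Of the 10 cardiomyocyte markers, only Actc1 was called in WT hearts. It fell with PTU (-0.71, adjusted p = 0.013) and rose from PTU to PTU+TH (1.36, adjusted p = 8.46e-06). It was also higher with PTU+TH than untreated (0.64, adjusted p = 0.0474). Of all genes, 4.90%, 11.4% and 2.03% changed in those WT comparisons. In mutant hearts with PTU, 1 cardiomyocyte marker rose (Pln) and 1 fell (Tnni3). With PTU+TH against untreated 1 rose (Actc1) and 4 fell (Actn2, Tnnt2, Tnni3 and Mybpc3), Actn2 and Mybpc3 not being called without PTU+TH replicate 1. Of all genes, 13.8% changed in mutant hearts with PTU and 22.0% with PTU+TH, each against untreated. These marker calls against untreated mutant hearts are not given without the shallow library or with the covariate for reads in no gene. The part of these markers in the Nmrk2 values was not tested. Nmrk2 shares 270 exonic bases, 14.6% of its length, with Atcayos on the opposite strand. The strand setting of the counting is not given, so reads of the overlap cannot be assigned. Atcayos ran from 19.8 to 100.3 CPM in hearts with a median of 33.0, against a median of 3.68 CPM for Nmrk2. Atcayos did not pass the test from PTU to PTU+TH in WT hearts (0.26, adjusted p = 0.718) or with PTU in mutant hearts (-0.83, adjusted p = 0.157). Its mean was 54.5 CPM in untreated mutant hearts and 29.8 CPM with PTU+TH, with overlapping libraries. The part of Atcayos reads in the Nmrk2 values was not tested.

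**Figure D1:**
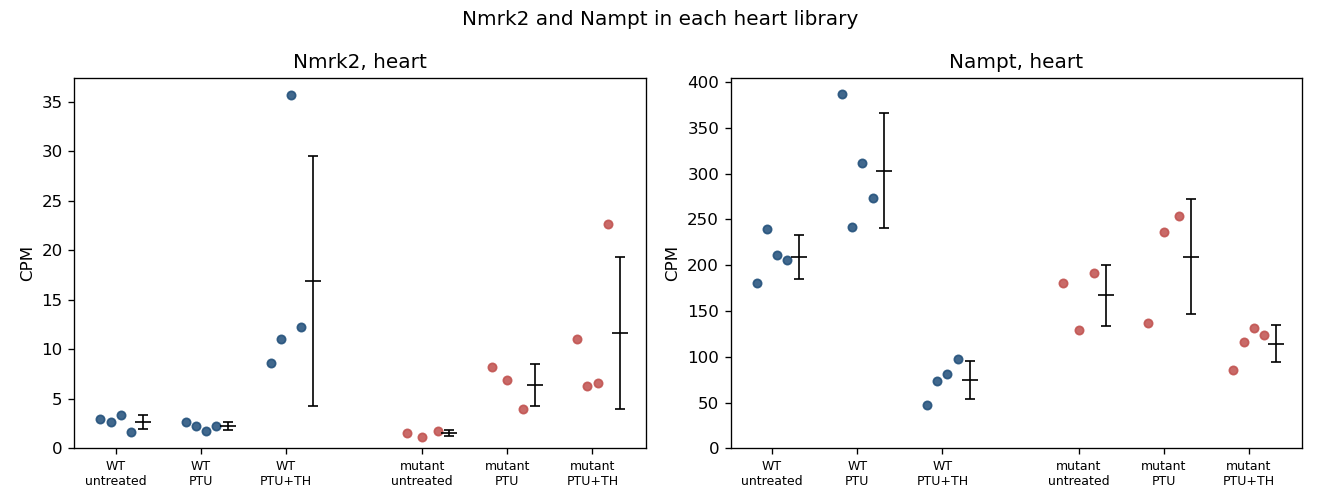
CPM of Nmrk2 and Nampt (y axes) in each heart library by genotype and treatment; points are libraries, and bars beside them are the mean and SD (n = 3 or 4). Nmrk2 lay between 8.57 and 35.6 CPM in WT PTU+TH hearts and at or below 3.33 CPM in the other WT hearts, whereas Nampt lay between 47.9 and 97.7 CPM in WT PTU+TH hearts, below all other WT hearts.

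Nampt (ENSMUSG00000020572, chromosome 12) fell after TH in WT hearts. It stood at 181, 239, 212 and 206 CPM untreated and at 387, 241, 312 and 273 CPM with PTU. With PTU+TH it stood at 47.9, 73.7, 81.1 and 97.7 CPM. The 3 WT groups did not overlap, PTU being highest and PTU+TH lowest. The PTU+TH mean of 75.1 ± 20.7 CPM was 0.248 of the PTU mean of 303 ± 62.7 CPM (SD, n = 4 each). The log2 change was -2.01 ± 0.220 (adjusted p = 1.78e-06). Against untreated hearts it fell by 1.48 ± 0.220 (adjusted p = 0.000507). Both calls held without each library in turn. The PTU change of 0.54 ± 0.220 did not pass the test (adjusted p = 0.183).

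In mutant hearts the Nampt values lay closer together. They were 181, 129 and 191 CPM untreated, 137, 236 and 254 CPM with PTU, and 85.2, 116, 131 and 124 CPM with PTU+TH. Every PTU+TH library was below every PTU library, and it overlapped the untreated range. None of the 3 mutant changes passed the edgeR test: 0.32 ± 0.255 with PTU (adjusted p = 0.407), -0.87 ± 0.238 from PTU to PTU+TH (adjusted p = 0.142) and -0.55 ± 0.239 from untreated to PTU+TH (adjusted p = 0.097). The change from PTU to PTU+TH did pass with DESeq2 (-0.88, adjusted p = 0.0396) and without mutant PTU replicate 1 (-1.10, adjusted p = 0.0306). Without PTU+TH replicate 1 it was -0.75 (adjusted p = 0.434), and the change from untreated was -0.43 (adjusted p = 0.243). The TH response was 1.14 ± 0.324 less negative in mutant than in WT hearts, and this genotype difference did not pass the test over all genes (adjusted p = 0.25, and 1.26, adjusted p = 0.199, without PTU+TH replicate 1). In PTU+TH hearts the mutant against WT log2 change was 0.61 ± 0.221 (adjusted p = 0.28, and 0.72, adjusted p = 0.447, without that library), with overlapping libraries.

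Scaled to length, as CPM per kb of exon, the makeup of the set shifted in TH-treated WT hearts. The WT shares use the Nmrk2 values that named the set, so they are a description with no test. The summed level of the 10 genes was 61.9 to 70.1 CPM per kb in untreated WT hearts. It was 69.2 to 108 with PTU and 39.3 to 60.6 with PTU+TH. Nmrk2 is part of that sum, so its level also enters the share of Nampt. Nampt made up 57.7% to 67.5% of the summed level of the 10 genes in untreated WT hearts and 69% to 74.5% with PTU, against 24.1% to 38.9% with PTU+TH. Nmrk2 made up 1.4% to 2.7%, 1.15% to 1.78% and 11.8% to 31.7% in the same order. Per length, the Nmrk2 level was 0.0154 to 0.0455 of that of Nampt in untreated and PTU hearts of WT mice and 0.343 to 1.2 of it with PTU+TH. In mutant PTU+TH hearts Nampt was at 38% to 47.2% and Nmrk2 at 6.48% to 20.9%, and both ranges overlapped those of WT PTU+TH hearts. In mutant PTU hearts Nmrk2 was at 2.95% to 8.08%, above its share in untreated mutant hearts (1.3% to 1.49%). Nmrk2 also outweighed Nmrk1, its paralog found in most tissues, in every heart library: 1.09 to 2.55 times in untreated hearts and 9.01 to 28.7 times in WT PTU+TH hearts.

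**Figure D2:**
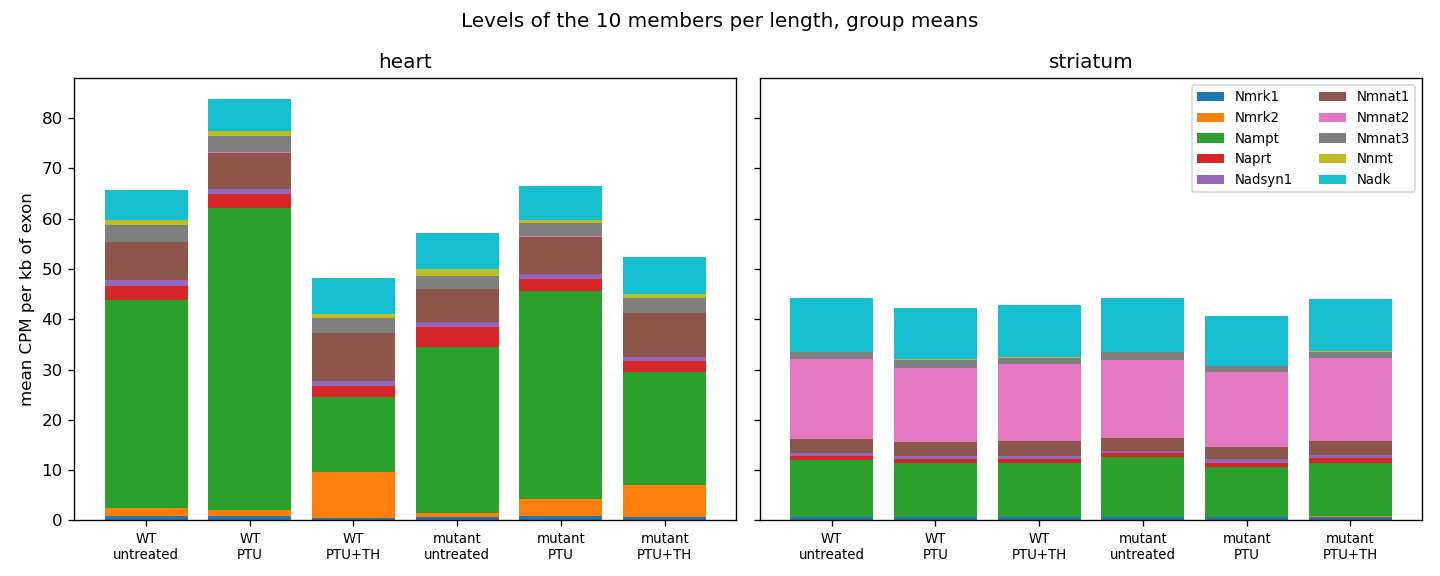
Mean level of the 10 genes in CPM per kb of exon (y axis), stacked by gene, in each of the 12 groups of heart and striatum; bars are group means without error bars. The Nampt block is at its smallest among hearts in the WT PTU+TH group, where the Nmrk2 block is at its largest, and the Nmnat2 block is large in striatum.

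Nmrk1, the other riboside kinase, lay lower after TH in WT hearts, where Nmrk2 lay higher, and Nmrk1 did not pass the test. It stood at 4.70, 4.00, 2.60 and 2.58 CPM untreated, 3.81, 3.14, 2.61 and 3.22 CPM with PTU, and 1.70, 2.44, 2.47 and 1.88 CPM with PTU+TH. The PTU+TH libraries lay below all the others, with log2 changes of -0.58 ± 0.241 from PTU (adjusted p = 0.131) and -0.68 ± 0.244 from untreated (adjusted p = 0.162). In mutant hearts all 3 groups overlapped, within 1.94 and 3.37 CPM.

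Naprt starts NAD synthesis from nicotinic acid and Nadsyn1 completes it by adding the amide group. Naprt stood at 7.78, 10.9 and 8.74 CPM in untreated mutant hearts, 7.24, 3.71 and 5.00 CPM with PTU, and 4.40, 4.97, 5.76 and 3.96 CPM with PTU+TH. The untreated libraries were above all treated ones. Naprt was lower with PTU+TH than untreated by a log2 change of -0.90 ± 0.314 (adjusted p = 0.042). That call was lost with the covariate for reads in no gene (-0.82, adjusted p = 0.111) and when any 1 of 5 of the 7 libraries was left out, mutant untreated replicate 1 and PTU+TH replicate 3 being the exceptions, with adjusted p up to 0.145 when the shallow library was left out. Naprt shares 277 exonic bases, 11.8% of its length, with Eef1d on the same strand, and Eef1d fell by 0.82 ± 0.235 in the same comparison (adjusted p = 0.0164). Without PTU+TH replicate 1 the Naprt change was -0.87 (adjusted p = 0.0875). The part of Eef1d, and of the cardiomyocyte and skeletal muscle markers called in this comparison, in the Naprt change was not tested. In WT hearts Naprt ran from 4.10 to 10.5 CPM with no call, and Nadsyn1 ran from 2.09 to 5.74 CPM over all hearts with no call.

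Among the Nmnat enzymes, which complete NAD from its mononucleotide, the nuclear form Nmnat1 had the highest median level in heart per length, 7.92 CPM per kb (range 4.63 to 9.94), against 2.78 for Nmnat3. In CPM it stood at 19.0, 20.8, 27.6 and 22.1 in untreated WT hearts, 27.7, 18.4, 19.0 and 22.2 with PTU, and 29.1, 27.5, 30.2 and 27.6 with PTU+TH. The PTU+TH libraries were at the top with slight overlap, and the log2 change from PTU of 0.39 ± 0.164 did not pass the test (adjusted p = 0.142). It did so without WT PTU replicate 1 (0.53, adjusted p = 0.0328). The mutant change from untreated to PTU+TH was alike in size (0.42 ± 0.184, adjusted p = 0.105) and passed without mutant untreated replicate 3 (0.63, adjusted p = 0.0476). Without PTU+TH replicate 1 it was 0.47 (adjusted p = 0.108). Nmnat3, the mitochondrial enzyme, ran from 7.43 to 26.6 CPM in hearts with all groups overlapping. Nmnat2, the neuronal form found in the cytosol and axons, had 0 to 5 counts in each heart and was not tested there.

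Nadk, which phosphorylates NAD to NADP, had the narrowest relative range of the members tested in heart, from 18.6 to 29.4 CPM. The 4 WT PTU+TH libraries (26.4, 26.1, 29.4 and 26.3 CPM) lay above the untreated ones (18.6, 23.0, 25.8 and 24.4 CPM), yet the log2 change of 0.24 ± 0.129 did not pass the test (adjusted p = 0.396). Nnmt, which methylates nicotinamide and so removes it from salvage, was at 0.804 to 3.91 CPM in hearts. Its highest value came from the shallow mutant untreated library, and it passed no test.

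**Figure D3:**
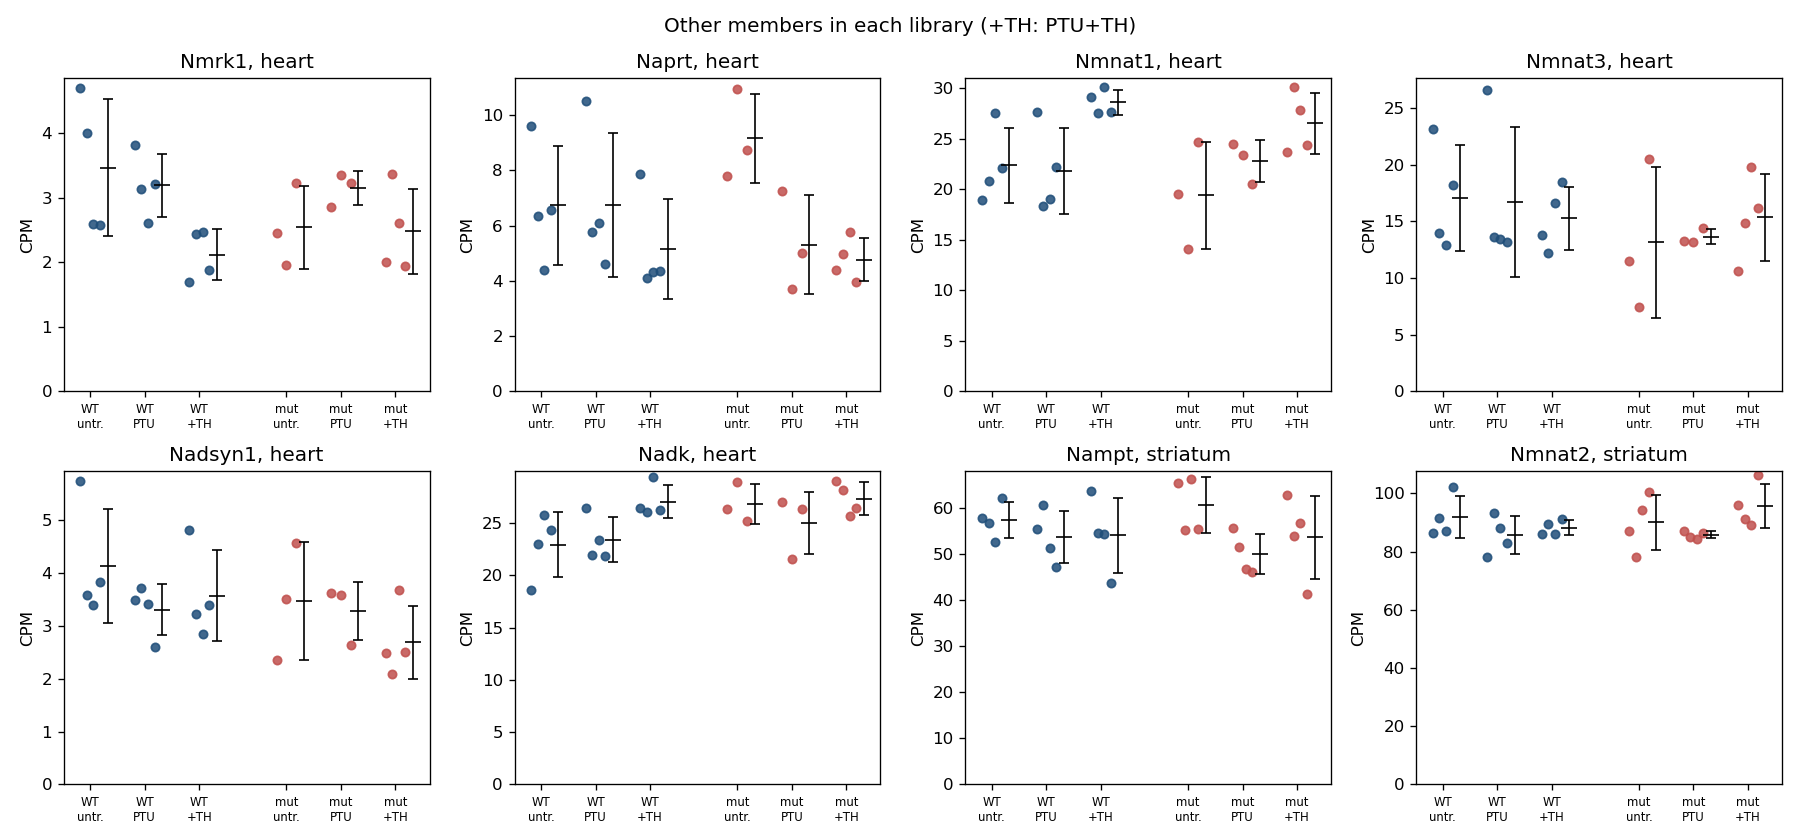
CPM (y axes) in each library by genotype and treatment for Nmrk1, Naprt, Nmnat1, Nmnat3, Nadsyn1 and Nadk in heart and Nampt and Nmnat2 in striatum; points are libraries, bars the mean and SD (n = 3 or 4). In WT hearts the PTU+TH libraries of Nmrk1 are the lowest, at 1.70 to 2.47 CPM, and in striatum the groups compared overlap for Nampt, and for Nmnat2 except mutant PTU (84.5 to 87.0 CPM) and mutant PTU+TH (89.1 to 106 CPM).

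Counted over the set, few members passed the test in any heart comparison. Genes said to have changed are those called at an adjusted p under 0.05, and shares at an unadjusted p are given as such. Of the 10 genes, 9 were expressed enough to be tested in heart, Nmnat2 being left out. Where Nmrk2 was set aside, the other 9 members were counted and 8 of them had been tested. In WT hearts 1 of those 8 was called from PTU to PTU+TH (Nampt, which fell), where 11.4% of all genes tested changed, and the median log2 change of the 8 was -0.27 against -0.03 for all genes. Nampt was also the 1 of 8 that fell from untreated to PTU+TH, where 2.03% of all genes changed. With PTU, where 4.90% changed, edgeR called 0 of 8 and DESeq2 0, while 1 had an unadjusted p under 0.05, as did 18.4% of all genes. In mutant hearts 1 of 9 was called with PTU (Nmrk2, which rose), where 13.8% of all genes changed. From PTU to PTU+TH, where 0.410% of all genes changed, edgeR called 0 of 9 and DESeq2 1, while 1 had an unadjusted p under 0.05, as did 7.11% of all genes. From untreated to PTU+TH 2 of 9 were called (Nmrk2, which rose, and Naprt, which fell), where 22.0% of all genes changed. The share of members called was near or below that of all genes in each of these comparisons except WT untreated to PTU+TH, where it rested on Nampt alone.

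**Figure D4:**
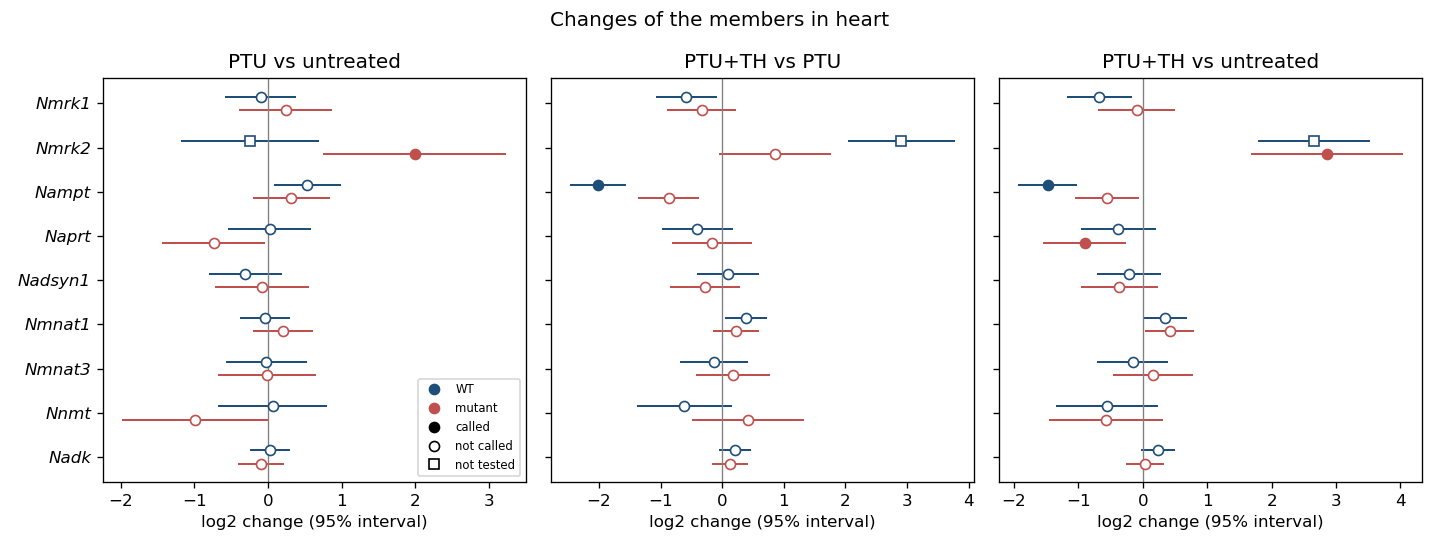
Log2 changes (x axis) with 95% intervals of the 9 members tested in heart for 3 treatment comparisons, WT in blue and mutant in red. Filled circles passed the test, open circles did not, and squares are Nmrk2 values given without a test. The intervals of the squares show spread only, as Nmrk2 was selected on libraries used there. Nampt stands at -2.01 in WT and -0.87 in mutant from PTU to PTU+TH, and Nmrk2 at -0.25 in WT and 2.00 in mutant with PTU.

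Between the genotypes no member was called in heart. Untreated hearts gave 0 of 8 in edgeR and 0 in DESeq2, beside 0.00% of all genes, and 0 of 8 had an unadjusted p under 0.05, beside 5.81% of all genes. PTU hearts gave 0 of 9 in edgeR and 1 in DESeq2 (Nmrk2), beside 2.20% of all genes, and 2 had an unadjusted p under 0.05 (Nmrk2 and Nampt), beside 17.5%. PTU+TH hearts gave 0 of 8 in edgeR and 0 in DESeq2, beside 0.0141% of all genes, and 1 had an unadjusted p under 0.05, beside 12.5%. For the genotype difference in the PTU response, 0 of 8 were called in edgeR and 0 in DESeq2 (0.579% of all genes), with 0 at an unadjusted p under 0.05, beside 16.0%. For that in the TH response, 0 of 8 were called in edgeR and 0 in DESeq2 (0.290% of all genes), with 1 at an unadjusted p under 0.05, beside 4.46%. The myosin gene Myh6, a classic TH target of heart muscle, differed between genotypes with PTU. Its mean was 170 CPM in WT PTU hearts and 8687 CPM in mutant PTU hearts (log2 change 5.67, adjusted p = 6.96e-05). The Myh6 mean with PTU was 0.00773 of the untreated mean in WT hearts and 0.282 of it in mutant hearts. For Myh7 the PTU mean was 117.6 times the untreated one in WT and 29.86 times in mutant hearts. After TH the mutant mean of Myh6 was 0.611 of the WT mean, without overlap. The part of these differences in the Nmrk2 values was not tested.

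In striatum the set was made up differently and no member was called. CPM were scaled within each tissue, so levels set across tissues rest on each tissue's own total. Nmnat2 was the highest member per length, at 13.5 to 18.4 CPM per kb, followed by Nampt at 8.18 to 13.1 and Nadk at 8.23 to 12.3, and these ranges of Nampt and Nadk overlapped. Nampt was at 41.3 to 66.2 CPM in striatum, below every heart library except WT PTU+TH replicate 1 (47.9 CPM). Nmrk2 had 19 counts over all 24 striatum libraries and Nnmt 34, so neither was tested. Among the 8 tested members, each of the 11 striatum comparisons gave 0 calls in edgeR and 0 in DESeq2, with 0 or 1 at an unadjusted p under 0.05, beside 235 to 1990 of the 15670 genes tested at that unadjusted p. Of all genes, 0.459% were called from PTU to PTU+TH in WT striatum and 0.00% in the other 10 comparisons. Summed markers of cortical excitatory neurons ran from 70.6 to 469.6 CPM and of choroid plexus from 13.5 to 64.7 CPM across striatum libraries.

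Other genes of NAD metabolism were also called in heart, where the shares of all genes called in each comparison are those given above. Of 9 genes of synthesis from tryptophan, only Afmid, which hydrolyses formylkynurenine, was expressed enough to be tested. Afmid rose with PTU in WT hearts by 2.25 ± 0.330 (adjusted p = 0.000124) and fell from PTU to PTU+TH by 1.33 ± 0.300 (adjusted p = 0.00394). It also rose with PTU in mutant hearts (1.19 ± 0.404, adjusted p = 0.0492). Calls of listed genes and markers against untreated mutant hearts are not given without the shallow library or with the covariate for reads in no gene. With that covariate, all genes called fell from 1952 to 594 with PTU and from 3118 to 1626 with PTU+TH. With a library left out, the count with PTU ran from 85 to 3163.

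Of 12 genes of NAD precursor transport and handling, 10 were tested. From PTU to PTU+TH in WT hearts 2 rose and 3 fell, with a median log2 change of -0.09 against -0.03 for all genes. Nt5e, the ecto-nucleotidase CD73 that makes nucleosides outside the cell, rose by 1.30 (adjusted p = 0.00019). Aox1, which oxidises methylated nicotinamide, fell by 1.27 (adjusted p = 4.83e-05), and Nnt, the mitochondrial transhydrogenase, fell by 1.26 (adjusted p = 0.0105). The remaining pair, Nadk2 (-1.02) and Slc29a1 (0.59), are named because the count was small, after their values were seen. Against untreated WT hearts only Aox1 changed (-1.15, adjusted p = 0.00105). In mutant hearts 2 rose and 1 fell with PTU (Naxd -0.89, Nt5e 0.83, Nadk2 0.72), and 2 rose and 3 fell from untreated to PTU+TH, led by Nt5e (1.22), Aox1 (-1.09) and Naxe (-0.94). Without PTU+TH replicate 1, Nt5e and Aox1 were still called. Naxe (-0.91, adjusted p = 0.0574) and Naxd (-0.70, adjusted p = 0.0605), another of the 3 that fell, were not. Nt5e was higher in mutant than in WT PTU hearts by 1.12 ± 0.231 (adjusted p = 0.00923), and its PTU response differed between genotypes by 1.54 ± 0.336 (adjusted p = 0.0325).

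Of 22 NAD-consuming enzymes 21 were tested in heart. With PTU in WT hearts 1 fell, the ADP-ribosyltransferase gene Art1 (-0.94, adjusted p = 0.0068). From PTU to PTU+TH 1 rose, Bst1, which cleaves NAD (1.21, adjusted p = 0.0244), and 1 fell, Art5, another ADP-ribosyltransferase gene (-1.54, adjusted p = 0.00204), with a median of 0.13 against -0.03 for all genes. Art5 was also lower than in untreated WT hearts (-1.78, adjusted p = 0.00371). In mutant hearts 3 rose and 2 fell with PTU, led by Art5 (-1.80), Parp10 (-1.16) and Parp4 (1.09), and 2 rose and 4 fell from untreated to PTU+TH, led by Art5 (-2.38), Parp10 (-1.12) and Tnks2 (0.93), which were the 3 still called without PTU+TH replicate 1. The median change over the 21 was -0.17 and -0.15 in these mutant comparisons, against -0.01 and -0.02 for all genes. Of 16 clock genes, listed because Nampt is a known target of the circadian clock, 15 were tested and only Clock was called, higher in mutant hearts with PTU (1.34, adjusted p = 0.0197) and with PTU+TH (1.33, adjusted p = 0.00854, and 1.11, adjusted p = 0.0324, without PTU+TH replicate 1) than untreated. The sources used here do not give the hour at which tissues were taken. Markers of other cells ran in hearts from 0.391 to 20.2 CPM for adipocytes, 0.561 to 9.34 for neutrophils and 631 to 1217 for fibroblasts. Of the 8 fibroblast markers, 3 fell in mutant hearts with PTU and 2 with PTU+TH against untreated, beside 13.8% and 22.0% of all genes. Without PTU+TH replicate 1, Col1a1 was called as well in the latter comparison (-0.95, adjusted p = 0.0362).

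Genes whose pattern was most like that of Nmrk2 were sought over the 22 heart libraries by Pearson's r of log2 CPM, among 9579 genes with a mean of at least 5 CPM. The libraries fall into 6 groups, so r mixes differences between and within groups and is a description. Spata5, an ATPase of ribosome assembly, came first (r = 0.909), with means of 8.30, 6.71 and 11.8 CPM in untreated, PTU and PTU+TH hearts of WT mice and 6.72, 9.19 and 12.2 CPM in those of mutant mice. Next came Rwdd4a (0.868), AI506816 (0.867), Tfrc (0.867), Ehd4 (0.866) and Pdss1 (0.865). Tfrc encodes the transferrin receptor, with means of 64.5, 43.5 and 223 CPM in WT and 29.9, 111 and 266 CPM in mutant hearts in the same order. Ehd4 acts in endocytic recycling and Pdss1 in coenzyme Q synthesis. The most opposite patterns were those of Itgb5, an integrin subunit (-0.904), Sqstm1, the autophagy receptor p62 (-0.873), and Saraf, a regulator of calcium entry (-0.864). Leaving out any library moved the r of Spata5 between 0.896 and 0.932. Among the members Nmnat1 had an r of 0.663 with Nmrk2 (rank 351 of 9579 from the highest r). Nampt had one of -0.668 (rank 9258) and Naprt one of -0.614 (rank 9057). Nadk (0.393) and Nmnat3 (0.104) lay between them. The TH targets Myh6 (0.309), Myh7 (0.348) and Hr (0.566) ranked far lower than the leading genes.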

How the data were processed

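Each deposited file gives the raw counts of 1 library over genes, made by the authors with Bowtie2 and HTSeq on mouse build GRCm39, per the submitters' processing notes. Libraries came from the CORALL V2 kit, per the labels' protocols. The sources used here do not give versions, the annotation release, the strand setting or any use of molecular identifiers. The 5 summary lines for reads in no gene were left out of totals and tests. The share of reads in no feature was 3.45% to 31.5% in heart and 5.4% to 14.7% in striatum. It was uneven between striatum groups, at 11.5% to 13.4% in mutant PTU and 5.43% to 13.4% in mutant untreated libraries.

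Heart and striatum were modelled separately in edgeR 4.0.16 (R 4.3.3), with a mean for each of their 6 groups: filterByExpr with a minimum count of 10 (14156 genes in heart, 15670 in striatum), TMM scaling and two-sided quasi-likelihood F tests in 11 comparisons per tissue. A gene was called at a Benjamini-Hochberg adjusted p under 0.05 over all genes tested. CPM are counts divided by each library's TMM-adjusted total, in M, and levels per length divide them by the union exon length in GENCODE M21 (GRCm38). The 10 members, the lists of other NAD genes, clock genes and cell markers, and the tests were chosen with earlier results of these data known. Genes named from the lists are at most 3 called per comparison by size of change, with the following exceptions. Nadk2, Slc29a1 and Naxd were named in addition after their values were seen. So were all cardiomyocyte markers called in heart. Likeness used log2 CPM with a prior count of 2. Alternatives were RLE scaling, no filter, DESeq2 1.42.0, the replicate number as a block, the share of reads in no feature as covariate, and leaving out each library. No 2 libraries of the same group agreed within sampling noise. The steps were tested on simulated data.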

Additional observations from a re-analysis of the deposited data

Results flagged for a closer look

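Of 100 combinations of gene and group with 4 libraries, 9 had a library far from the others of its group, and chance alone gives about 1 in 20. In heart, Nmrk2 was at 35.6 CPM in WT PTU+TH replicate 3, against 8.57 to 12.3 CPM in the other 3. Naprt was at 7.86 CPM in WT PTU+TH replicate 1, against 4.10 to 4.37 CPM. Nmnat3 was at 26.6 CPM in WT PTU replicate 1, against 13.2 to 13.6 CPM. Nadk was at 29.4 CPM in WT PTU+TH replicate 3, against 26.1 to 26.4 CPM. In striatum, Nadk was at 31.6 CPM in mutant PTU+TH replicate 4, against 41.5 to 41.7 CPM in the others. Nmnat3 was at 9.36 CPM in WT untreated replicate 1, against 6.87 to 7.22 CPM. The other 3 rest on 0 to 3 counts per library: Nmrk2 at 0.161 CPM in WT untreated replicate 4 and at 0.0845 CPM in WT PTU+TH replicate 4, and Nnmt at 0.295 CPM in WT PTU+TH replicate 2.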

How the results depend on the processing

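Over the members, 2596 values under alternatives stayed on the same side of the threshold (202 of them, all uncalled, with the other sign) or, untested, within the spread, 12 lost a call, 7 gained one, 3 untested values moved by more than the spread and 1 reversed: Nmrk2 between genotypes after TH, which ran from -1.09 to 0.13 with a library left out and was 0.13 without WT PTU+TH replicate 3. The number of members called in WT hearts from PTU to PTU+TH was 1, and 1 to 2 with a library left out. In mutant hearts it was 1 with PTU (0 with the covariate, 0 to 1 with a library left out), 0 from PTU to PTU+TH (1 with no filter, 1 with DESeq2, 0 to 1 with a library left out) and 2 from untreated to PTU+TH (1 with the covariate, 1 to 2 with a library left out). Between genotypes with PTU it was 0 (1 with no filter, 1 with DESeq2, Nmrk2 in both). The cause of these changes was not tested. Over all genes called in heart, WT counts were 694 with PTU (483 to 1069 with a library left out), 1614 from PTU to PTU+TH (1160 to 1681) and 288 from untreated (121 to 302, 575 with no filter, 518 with DESeq2). Mutant counts were 1952 with PTU (85 to 3163, 594 with the covariate), 58 from PTU to PTU+TH (15 to 106, 151 with no filter, 133 with DESeq2) and 3118 from untreated (1173 to 3902, 1626 with the covariate). Between genotypes all genes called were 0 untreated (0 to 21, 127 with no filter, 4 with DESeq2), 311 with PTU (78 to 324, 482 with no filter, 550 with DESeq2) and 2 with PTU+TH (0 to 3, 39 with no filter, 132 with DESeq2). For the genotype difference in response all genes called were 82 for PTU (1 to 721, 341 with no filter, 297 with DESeq2, 54 with the covariate) and 41 for TH (11 to 68, 136 with no filter, 87 with DESeq2). In WT striatum from PTU to PTU+TH all genes called were 72 (0 to 357, 257 with no filter, 320 with DESeq2, 207 with the covariate), with PTU 0 (82 with no filter, 34 with DESeq2). Replicate numbers were not used as pairs in the main fit. Deviations of same-numbered heart libraries of different groups had a median r of 0.0795 (-0.249 to 0.598). For differently numbered ones it was -0.016 (-0.482 to 0.35). In striatum the medians were 0.0718 (-0.686 to 0.455) and -0.0344 (-0.663 to 0.659). Same-numbered libraries thus leaned slightly higher in both tissues, and whether the numbers mark pairs was not tested. With the replicate number as a block, the members called stayed at 1 in WT hearts from PTU to PTU+TH and at 2 in mutant hearts from untreated to PTU+TH, and no count of members changed in any comparison. Counts of 3 or fewer limit Nmrk2 in the shallow mutant heart and in striatum, Nnmt in striatum and Nmnat2 in most hearts.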
